A study of Homo sapiens with 24 samples.

Results

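NQO1, HMOX1, GCLM, GCLC, TXNRD1, SRXN1, CBR1, ME1 and OSGIN1 are genes under the transcription factor NRF2, and their transcripts were followed in HCT116 cells given inhibitors of DNA methyltransferase 1. A probe set, the group of probes on the array that reads 1 transcript, belonged to them if its single gene symbol in the probe table was one of the 9. The rule gave 18 of 54675 probe sets, of which 17 passed a filter on low values (5 log2 or more on 2 or more arrays). Where a gene had several, the brightest probe set stood for it, and the 9 genes were tested among 18055. HCT116 is an established human colorectal carcinoma line, here grown from ATCC stock in RPMI1640 with 5% FBS. Every group was treated for 72 h and received DMSO, the solvent of the compound stocks, in the same volume. The treated groups had DAC (decitabine) at 5 µM or 120 nM, G669071 at a higher or a lower dose, G668684 at 7 µM or 150 nM, Aza (azacytidine) at 1500 nM or 150 nM, and G669043 at 1500 nM or 150 nM, with 2 arrays each, and DMSO alone had 4 arrays. For G669071 the sample titles give 63 µM and 6 µM, while the source names give 120 nM and 6 nM, and the labels do not settle which is right. The series speaks of decitabine, azacytidine and prodrugs. Titles mark G669071 with phos, G668684 with ester and G669043 with a leading Aza; no structure was read into these words.

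NRF2, encoded by NFE2L2, is held in the cytoplasm and marked for degradation by KEAP1. When oxidants or electrophiles modify KEAP1, NRF2 accumulates, pairs with a small MAF protein and binds the antioxidant response element (ARE) of its target genes. NQO1 and CBR1 encode reductases of quinones and carbonyls, HMOX1 the heme oxygenase that opens the heme ring, and GCLC and GCLM the catalytic and modifier subunits of the enzyme that limits glutathione synthesis. TXNRD1 reduces thioredoxin, SRXN1 restores overoxidised peroxiredoxins, ME1 supplies NADPH, and OSGIN1 encodes a growth-inhibiting protein induced by oxidative stress. DAC and Aza, once built into DNA in place of cytidine, bind DNA methyltransferases covalently, and methylation is then lost as cells divide. No methylation was measured here.

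The promoters of the 3 genes whose transcripts moved most, in either direction, are shown because the results turn on them. Each window is a RefSeq sequence of GRCh38.p14 that runs from 250 bases before to 50 bases after the gene's start, 5′ to 3′ on the gene's strand, with any match to the ARE core TGACNNNGC, searched on both strands, in capitals.
CBR1, chr21:36069774-36070073, plus strand: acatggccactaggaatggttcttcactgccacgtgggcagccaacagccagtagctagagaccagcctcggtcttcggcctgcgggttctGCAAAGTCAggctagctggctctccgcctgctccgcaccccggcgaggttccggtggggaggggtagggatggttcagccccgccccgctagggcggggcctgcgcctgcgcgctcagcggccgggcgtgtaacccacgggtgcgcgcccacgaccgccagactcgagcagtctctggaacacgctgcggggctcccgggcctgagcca
NQO1, chr16:69726511-69726810, minus strand: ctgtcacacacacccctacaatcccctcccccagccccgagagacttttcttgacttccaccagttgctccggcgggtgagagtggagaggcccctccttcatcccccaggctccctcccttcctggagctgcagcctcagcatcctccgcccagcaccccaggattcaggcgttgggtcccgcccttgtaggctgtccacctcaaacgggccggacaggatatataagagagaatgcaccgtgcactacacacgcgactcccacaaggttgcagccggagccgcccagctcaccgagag
GCLM, chr1:93909381-93909680, minus strand: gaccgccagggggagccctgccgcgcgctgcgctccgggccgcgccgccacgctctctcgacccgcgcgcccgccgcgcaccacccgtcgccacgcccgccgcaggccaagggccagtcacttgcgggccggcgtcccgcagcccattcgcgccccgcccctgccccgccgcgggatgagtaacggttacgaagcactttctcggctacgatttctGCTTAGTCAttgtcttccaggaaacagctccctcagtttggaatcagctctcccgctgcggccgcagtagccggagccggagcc
The CBR1 match, GCAAAGTCA, begins 159 bases before the start, and the GCLM match, GCTTAGTCA, 34 bases before it; both read as the core on the opposite strand. The NQO1 window holds no match, which says only that these letters are not in this window. A window was given for 8 of the 9 genes, all but HMOX1, with 2 windows for TXNRD1. The core occurred in 5 of these 9 windows, those of CBR1, GCLM, ME1 and both of TXNRD1, against 13.3% of 35114 promoters of the same length. The ME1 match TGACTCAGC overlaps the AP-1 motif TGANTCA, which occurred in 2 of the 9 windows and in 7.71% of all. CpG pairs numbered 27 in the CBR1 window, 14 in that of NQO1 and 41 in that of GCLM, beside a median of 14 over all promoters. These counts describe the sequences and do not show that a factor binds there.

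The arrays had medians between 6.46 and 6.58 log2, and the 2 arrays of each treated group had an r of 0.990 to 0.998 across genes. The DMSO arrays formed pairs: replicates 1 and 2 correlated at 0.997, as did replicates 3 and 4, and arrays of different pairs at 0.990 to 0.991. The beta-actin 3′ minus 5′ value, which follows RNA quality, read -0.03 and 0 log2 in the first pair and 0.24 and 0.15 in the second. Epithelial markers were at high levels in DMSO (EPCAM 12.9, KRT8 12.1, KRT18 13.7 log2), and VIL1, CDX2 and LGALS4 at 7.40, 7.06 and 6.78. Of the markers of other cell types with a level here, PTPRC, at 4.39, and LUM, at 4.25, lay under the filter value of 5. The other 8 lay above it, from ALB at 5.38 to HBB at 8.77 and COL1A1 at 9.98, so the arrays do not show that these transcripts were absent. The labels do not say that replicates were separate cultures, so the p-values rest on the spread between these samples alone, possibly a technical one. The files hold no detection calls. In bulk RNA, fewer cells with a transcript and less of it per cell cannot be told apart.

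Each treated group was compared with DMSO to ask which transcripts the compound changed. CBR1 was called higher in 8 of the 10 treated groups, and was the member with the largest fold changes. NQO1 was lower in 5 groups, all with DAC, G669071 or G668684, and higher in 2, Aza and G669043 at 1500 nM. HMOX1, GCLM and SRXN1 were each called higher in 4 groups, TXNRD1 in 2 and OSGIN1 in 1, and none of them was called lower. GCLC and ME1 were called in no group. No group moved all 9 genes, and the 10 comparisons share the same DMSO arrays. A call means a Benjamini-Hochberg adjusted p under 0.05 over the 18055 genes, by limma, 2-sided.

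**Figure D1:**
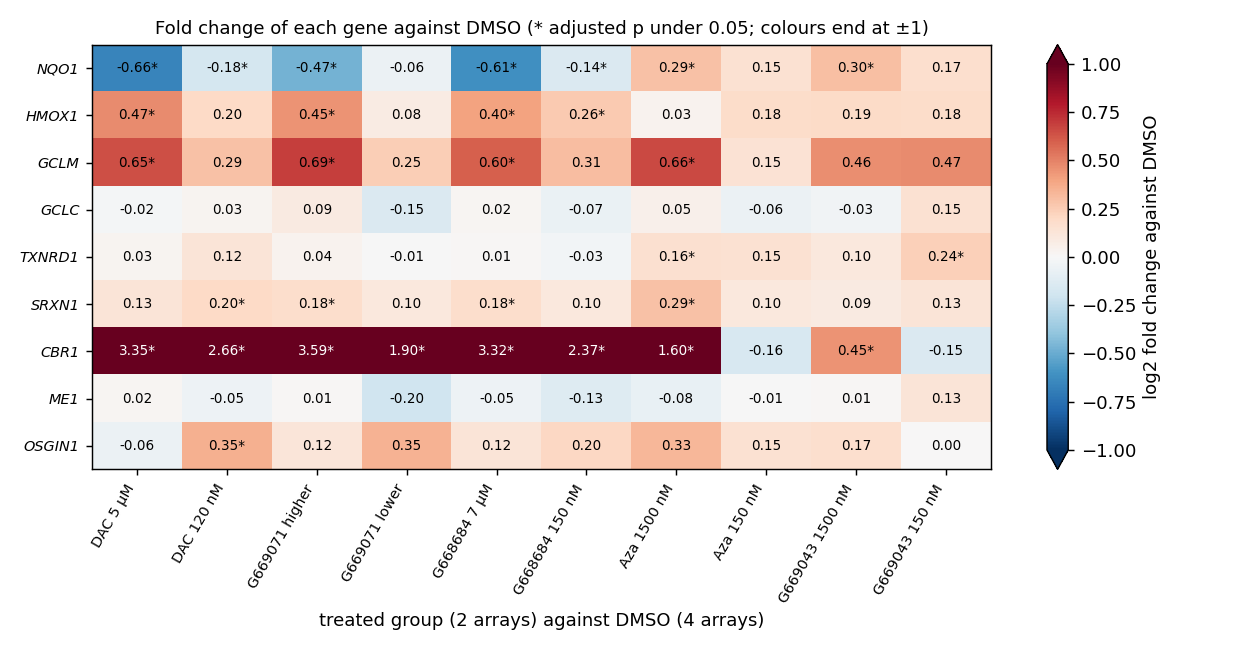
Log2 fold change against DMSO of the 9 NRF2 target genes (rows) in the 10 treated groups (columns), with an asterisk where the adjusted p was under 0.05; the colours end at 1 log2 unit in either direction. CBR1 reached 3.59 with the higher dose of G669071, and NQO1 ran from -0.66 with DAC at 5 µM to 0.30 with G669043 at 1500 nM.

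At the higher doses, DAC at 5 µM raised 3 of the 9 genes, where 18% of all genes were called higher, and lowered 1, where 14.2% were called lower. G669071 raised 4 (15.8% of all genes) and lowered 1 (13.7%), and G668684 at 7 µM raised 4 (17.5%) and lowered 1 (14.7%). Aza at 1500 nM raised 5 (8.13%) and lowered 0 (9.18%), and G669043 at 1500 nM raised 2 (5.88%) and lowered 0 (3.25%). The median log2 fold change of the 9 was 0.03 with DAC at 5 µM, 0.12 with G669071 and 0.29 with Aza at 1500 nM, beside -0.04, -0.03 and 0.03 for all genes. At the lower doses, DAC at 120 nM raised 3 (12.5%) and lowered 1 (9.9%), G669071 raised 1 (8.68%) and lowered 0 (6.91%), and G668684 at 150 nM raised 2 (10.7%) and lowered 1 (10.4%). Aza at 150 nM gave 0 calls in either direction among the 9 by limma (1.03% of all genes higher and 0.46% lower). At an unadjusted p under 0.05 stood 3 members and 2101 of the 18055 genes. G669043 at 150 nM raised 1 (0.709%) and lowered 0 (0.161%).

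CBR1, the cytosolic carbonyl reductase, had the widest range of the 9, and its mean was higher at the higher dose of every compound. For G669043 that difference depended on single arrays, as given below. Its log2 levels were 8.44 and 8.62 with DAC at 5 µM, 8.75 and 8.79 with the higher dose of G669071, and 8.48 and 8.53 with G668684 at 7 µM, against 5.05, 5.27, 5.09 and 5.32 in the DMSO arrays. At the lower doses it stood at 7.92 and 7.76 with DAC at 120 nM, 7.01 and 7.16 with G669071, and 7.45 and 7.65 with G668684 at 150 nM. All 12 of these arrays lay above every DMSO array, and the lowest of them by more than 1 log2 unit. In these groups 29.6% (DAC at 120 nM) to 42.6% (DAC at 5 µM) of all genes did not overlap DMSO. Aza at 1500 nM gave 6.81 and 6.76, and G669043 at 1500 nM gave 5.61 and 5.66. At 150 nM the levels were 4.93 and 5.12 with Aza and 4.80 and 5.27 with G669043, which overlapped the DMSO arrays.

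Against DMSO, CBR1 rose by 3.59 ± 0.11 log2 (SE; 12-fold, adjusted p = 5.6e-15) with the higher dose of G669071, by 3.35 ± 0.11 (10.2-fold, 1.84e-14) with DAC at 5 µM and by 3.32 ± 0.11 (10-fold, 2.01e-14) with G668684 at 7 µM. The rises at the lower doses were 2.66 for DAC (6.31-fold), 2.37 for G668684 (5.16-fold) and 1.90 for G669071 (3.74-fold), and Aza at 1500 nM gave 1.60 (3.04-fold, adjusted p = 6.32e-09). These 7 calls held under all 37 alternatives. G669043 at 1500 nM gave 0.45 (1.37-fold, adjusted p = 0.014), a call lost without either of its arrays (adjusted p = 0.0846 without replicate 1 and 0.163 without replicate 2). With Aza at 150 nM the difference was -0.16, with a 95% interval from -0.39 to 0.08. The DMSO mean of 5.18 lies close to the filter value, so whether it is above background is unknown and the size of these folds is not settled. CBR1 was read by 1 probe set. CBR3, its neighbour in the same family of reductases, was called only with DAC at 120 nM, where it was lower at -0.36 (adjusted p = 0.0101). That call was lost without replicate 1 of the group, at -0.22 (0.256), and against DMSO replicates 1 and 2 alone (0.0539).

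**Figure D2:**
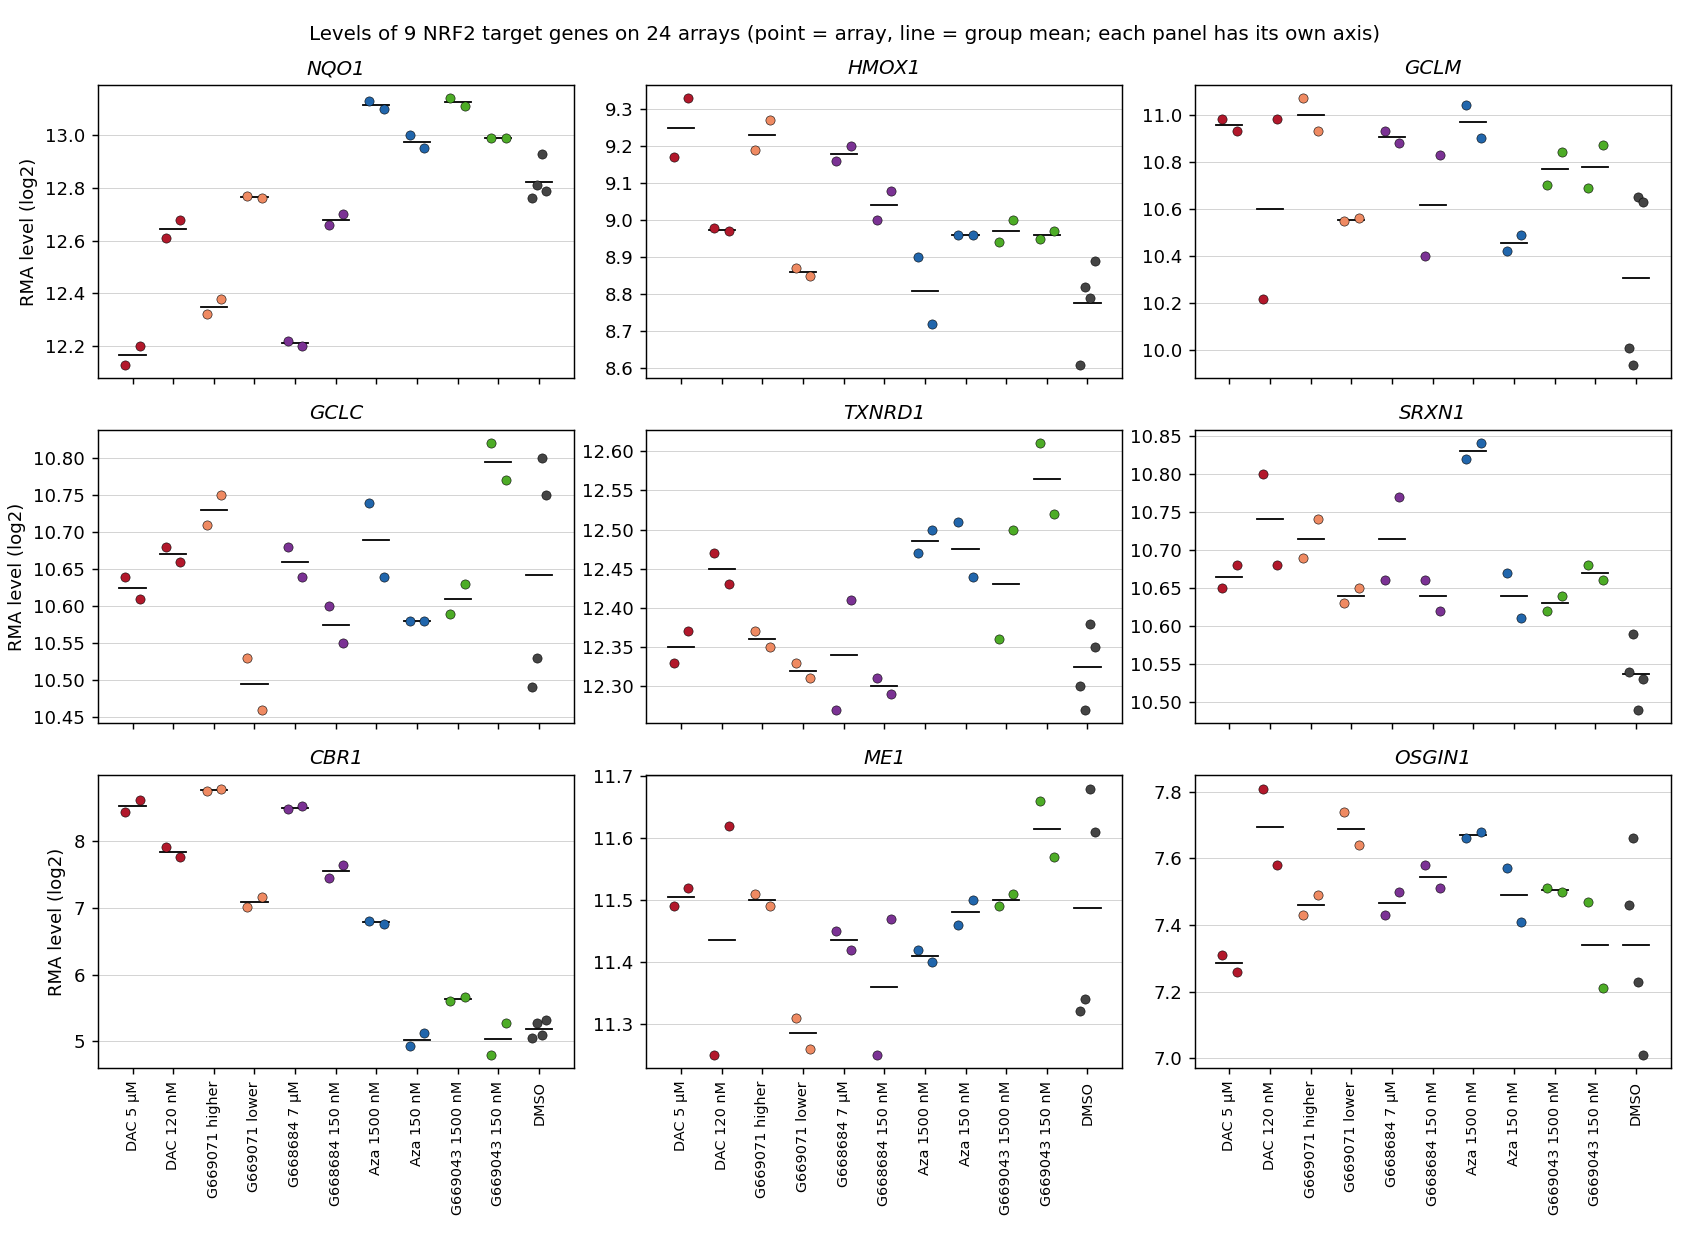
Log2 level of each of the 9 genes (1 panel each) by group, with a point for each array and a line at the group mean; DMSO stands at the right of each panel. The CBR1 arrays of DAC, G669071 and G668684 lie between 7.01 and 8.79, above the DMSO arrays at 5.05 to 5.32, and all 20 treated SRXN1 arrays lie above the 4 DMSO arrays.

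NQO1, the quinone reductase that serves as the usual marker of NRF2 activity, split the compounds. It stood at 12.13 and 12.20 with DAC at 5 µM, 12.32 and 12.38 with the higher dose of G669071 and 12.22 and 12.20 with G668684 at 7 µM, against 12.76, 12.81, 12.93 and 12.79 in DMSO. Aza at 1500 nM gave 13.13 and 13.10 and G669043 at 1500 nM gave 13.14 and 13.11. The 8 arrays of Aza and G669043, at either dose, lay above all DMSO arrays, and 10 of the 12 others lay below all of them. Group by group, 17.5% (Aza at 150 nM) to 42.6% (DAC at 5 µM) of all genes did not overlap DMSO. NQO1 fell by 0.66 ± 0.05 with DAC at 5 µM (adjusted p = 8.1e-10), by 0.61 ± 0.05 with G668684 at 7 µM (2.37e-09) and by 0.47 ± 0.05 with G669071 (9.54e-08). It rose by 0.29 with Aza (adjusted p = 0.000135) and by 0.30 with G669043 (0.000192) at 1500 nM. The G669043 call was lost in a fit of that group and DMSO alone (0.0585).

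At the lower doses the NQO1 levels were 12.61 and 12.68 with DAC, 12.77 and 12.76 with G669071, 12.66 and 12.70 with G668684, 13 and 12.95 with Aza, and 12.99 on both arrays with G669043. The gene was lower with DAC at 120 nM, at -0.18 (adjusted p = 0.00711; 0.111 if its replicate 1 is left out; 0.0599 after median centring), and with G668684 at 150 nM, at -0.14 (adjusted p = 0.0304). The second of these calls was lost in 9 of 36 alternatives, among them the fits without DMSO replicate 3 (0.0841) and without either treated array (0.243 and 0.0805). With 150 nM the values of 0.15 for Aza and 0.17 for G669043 were not called (adjusted p = 0.118 and 0.0831). Both were called higher in some alternatives. Against DMSO replicates 1 and 2 alone Aza gave 0.19 (0.0224) and G669043 gave 0.205 (0.00371). Without DMSO replicate 3 the adjusted p-values were 0.0229 and 0.0144, and with the beta-actin covariate 0.0306 and 0.0237. All 3 NQO1 probe sets were called in each of the 5 higher-dose groups, in the same direction as the gene; over all 35146 probe sets 28.2% were called with DAC, 26.1% with G669071, 28.1% with G668684, 14.3% with Aza and 6.98% with G669043. One of the other probe sets gave the larger falls, -1.05 with DAC at 5 µM, -0.96 with G669071 and -0.98 with G668684, and the third gave -0.73, -0.56 and -0.62.

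HMOX1, the inducible heme oxygenase, rose with the higher doses of the compounds that lowered NQO1. Its levels were 9.17 and 9.33 with DAC at 5 µM, 9.19 and 9.27 with G669071 and 9.16 and 9.20 with G668684, against 8.61, 8.82, 8.79 and 8.89 in DMSO. The rises were 0.47 ± 0.08 (adjusted p = 5.47e-05), 0.45 ± 0.08 (9.99e-05) and 0.40 ± 0.08 (3e-04), and all 3 calls held under the 37 alternatives. Aza at 1500 nM gave 8.90 and 8.72, within the DMSO range on 1 of the 2 arrays, and a difference of 0.03 that was not called. G669043 at 1500 nM gave 8.94 and 9, a difference of 0.19 that was not called (adjusted p = 0.139). Among the lower doses only G668684 at 150 nM was called, at 0.26 (adjusted p = 0.0168). Leaving out either of its arrays ended that call (0.0567 and 0.156), as did a comparison with DMSO replicates 3 and 4 alone (0.051). Of the 20 treated arrays, 17 lay above all DMSO arrays, all set against the same 4 DMSO arrays. In single groups, 17.5% (Aza at 150 nM) to 42.6% (DAC at 5 µM) of all genes did not overlap DMSO.

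GCLM, the modifier subunit of glutamate-cysteine ligase, was called higher at 4 higher doses, but its DMSO level also parted the DMSO pairs, at -0.67 log2 for replicates 1 and 2 minus replicates 3 and 4. The levels were 10.98 and 10.93 with DAC at 5 µM, 11.07 and 10.93 with G669071, 10.93 and 10.88 with G668684 at 7 µM and 11.04 and 10.90 with Aza at 1500 nM, against 10.01 and 9.94 in the first pair of DMSO arrays and 10.65 and 10.63 in the second. All 8 treated arrays lay above all 4 DMSO arrays. Group by group, 29.4% (Aza at 1500 nM) to 42.6% (DAC at 5 µM) of all genes did not overlap DMSO. The gene rose by 0.65 ± 0.19 with DAC (adjusted p = 0.012), 0.69 ± 0.19 with G669071 (0.00821), 0.60 ± 0.19 with G668684 (0.02) and 0.66 ± 0.19 with Aza (0.0193). Against DMSO replicates 3 and 4 alone these differences were 0.32, 0.36, 0.27 and 0.33 and none was called (adjusted p = 0.159, 0.106, 0.242 and 0.133), while against replicates 1 and 2 alone they were 0.98, 1.03, 0.93 and 1.00. The beta-actin values given above parted the same DMSO pairs, while the GAPDH values did not. With that value as a covariate all 4 calls were kept, at 0.61 with DAC (adjusted p = 0.000362), 0.79 with G669071, 0.61 with G668684 and 0.82 with Aza. GCLM was then also called at 3 lower doses, at 0.45 with DAC (0.00996), 0.55 with G668684 (0.0034) and 0.46 with G669043 (0.03).

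The split in GCLM also ran through treated groups and through its other probe sets. With DAC at 120 nM its arrays stood at 10.22 and 10.98, and with G668684 at 150 nM at 10.40 and 10.83. A second probe set read 7.88 and 8.93 with DAC at 120 nM and 7.67 and 8.74 with G668684 at 150 nM, against 8.03, 7.97, 8.99 and 8.80 in DMSO. Neither it nor the third, which read 6.75, 6.44, 7.52 and 7.31 in DMSO, was called against DMSO in any group. At the lower doses 19.9% of all probe sets were called with DAC, 12.5% with G669071, 18.4% with G668684, 0.947% with Aza and 0.256% with G669043. The mean of the 3 probe sets was called in none of the 4 (adjusted p = 0.0846, 0.132, 0.142 and 0.258 in the order above). The calls were lost without either array of DAC at 5 µM (0.0867 and 0.0658), of G668684 at 7 µM (0.118 and 0.0849) or of Aza at 1500 nM (0.159 and 0.0849). The G669071 call was lost without its replicate 1 (0.0964). With G668684 the call was also lost without DMSO replicate 1 (0.0567) or 2 (0.0579).

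**Figure D3:**
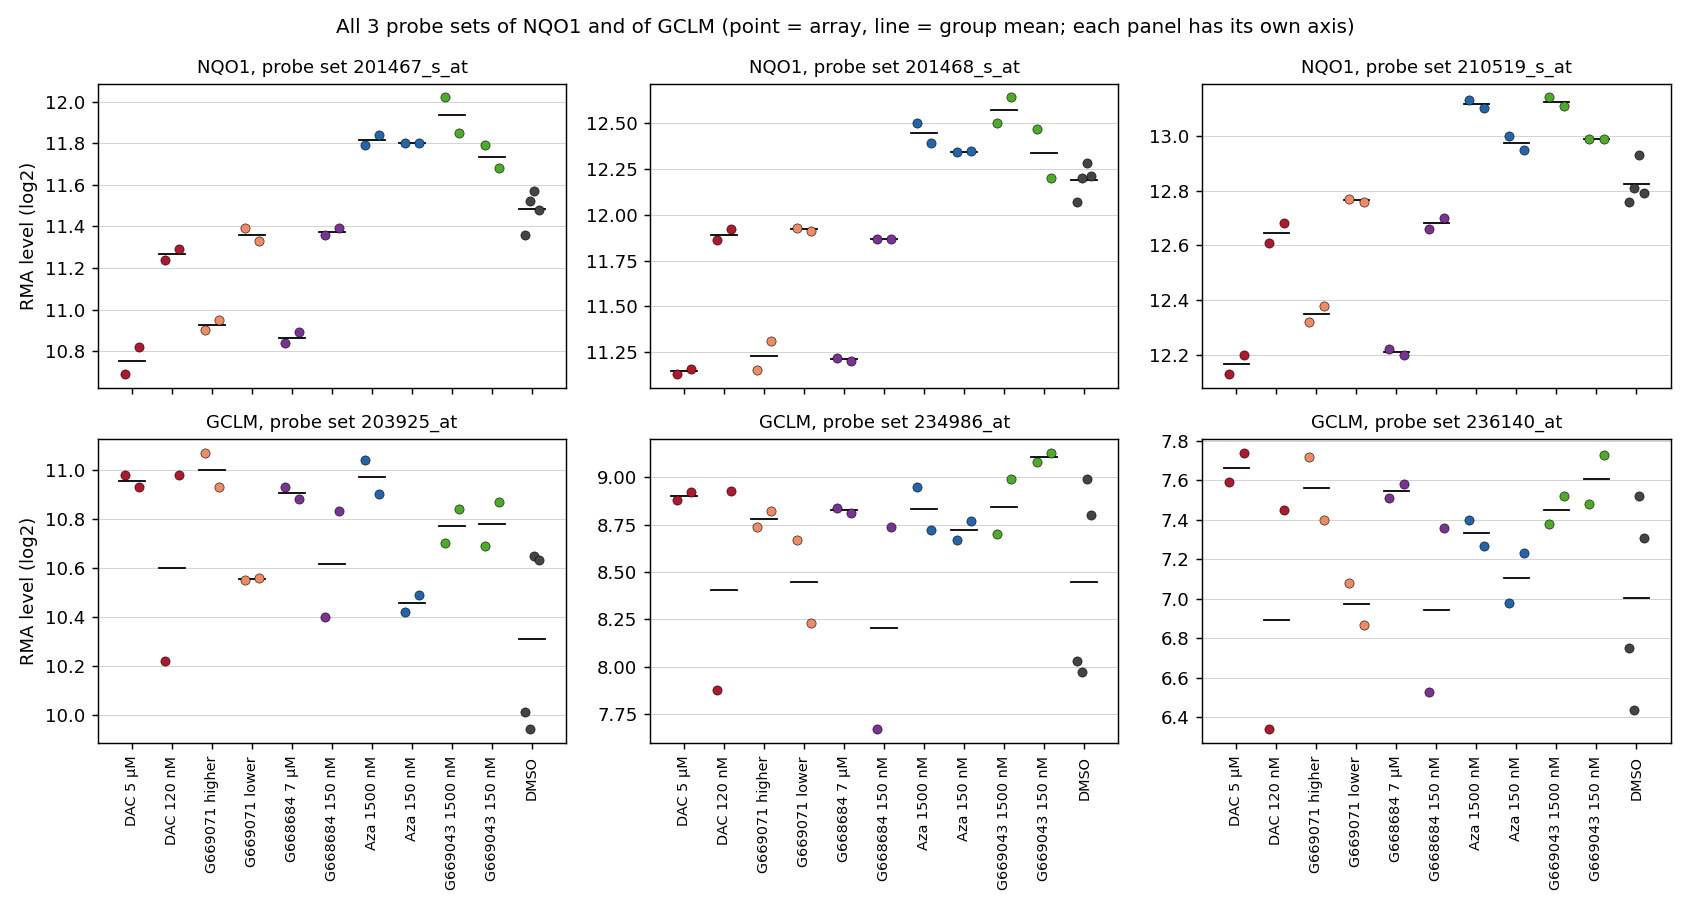
Log2 level on each array of the 3 probe sets of NQO1 and the 3 of GCLM, by group, with DMSO at the right. The NQO1 probe sets fall together with DAC at 5 µM, while those of GCLM part the DMSO arrays, as in the second GCLM probe set with 8.03 and 7.97 in one pair and 8.99 and 8.80 in the other.

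GCLC, the catalytic partner of GCLM, was not called in any group by the probe set that stood for it. Its 20 treated arrays lay between 10.46 and 10.82 with a median of 10.64, against 10.49, 10.53, 10.80 and 10.75 in DMSO, and its differences lay between -0.15 and 0.15. The treated arrays covered the whole DMSO range. GCLC parted the DMSO pairs too, at -0.265 log2 (first minus second), and the direction of its calls depended on the pair used. Against replicates 1 and 2 alone, G669043 at 150 nM raised it by 0.285 (adjusted p = 0.00248). Rises were also called there for the higher G669071 dose (0.22), Aza at 1500 nM (0.18), DAC at 120 nM (0.16) and G668684 at 7 µM (0.15). Against replicates 3 and 4 alone, the lower G669071 dose lowered it, at -0.28 (0.000935). Falls were then also called for G668684 at 150 nM (-0.20), Aza at 150 nM (-0.195) and DAC at 5 µM (-0.15). When probe sets ending in _s_at, _x_at or _a_at were left out, another GCLC probe set stood for the gene. That one was called lower with G668684 at 150 nM, at -0.42 (adjusted p = 0.0354). Its arrays there read 9.44 and 9.85, against 9.83 to 10.33 in DMSO. ME1, the cytosolic malic enzyme, was likewise not called: its treated arrays lay between 11.25 and 11.66 with a median of 11.48, against 11.32, 11.34, 11.68 and 11.61 in DMSO, and its differences between -0.20 and 0.13. Its 2 arrays with DAC at 120 nM read 11.25 and 11.62, one below all DMSO arrays and the other within their range. ME1 parted the DMSO pairs, at -0.315 log2 (first minus second). With only the second pair as control it fell with the lower G669071 dose (-0.36, adjusted p = 0.00467). It was also lower with G668684 at 150 nM (-0.285, 0.0179) and Aza at 1500 nM (-0.235, 0.047). With only the first, G669043 at 150 nM raised it by 0.285 (0.0212). A dimmer ME1 probe set ran from 9.99 to 10.95 in DMSO. It read 9.34 and 10.44 with DAC at 120 nM and 10.84 and 10.92 with G669043 at 150 nM.

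**Figure D4:**
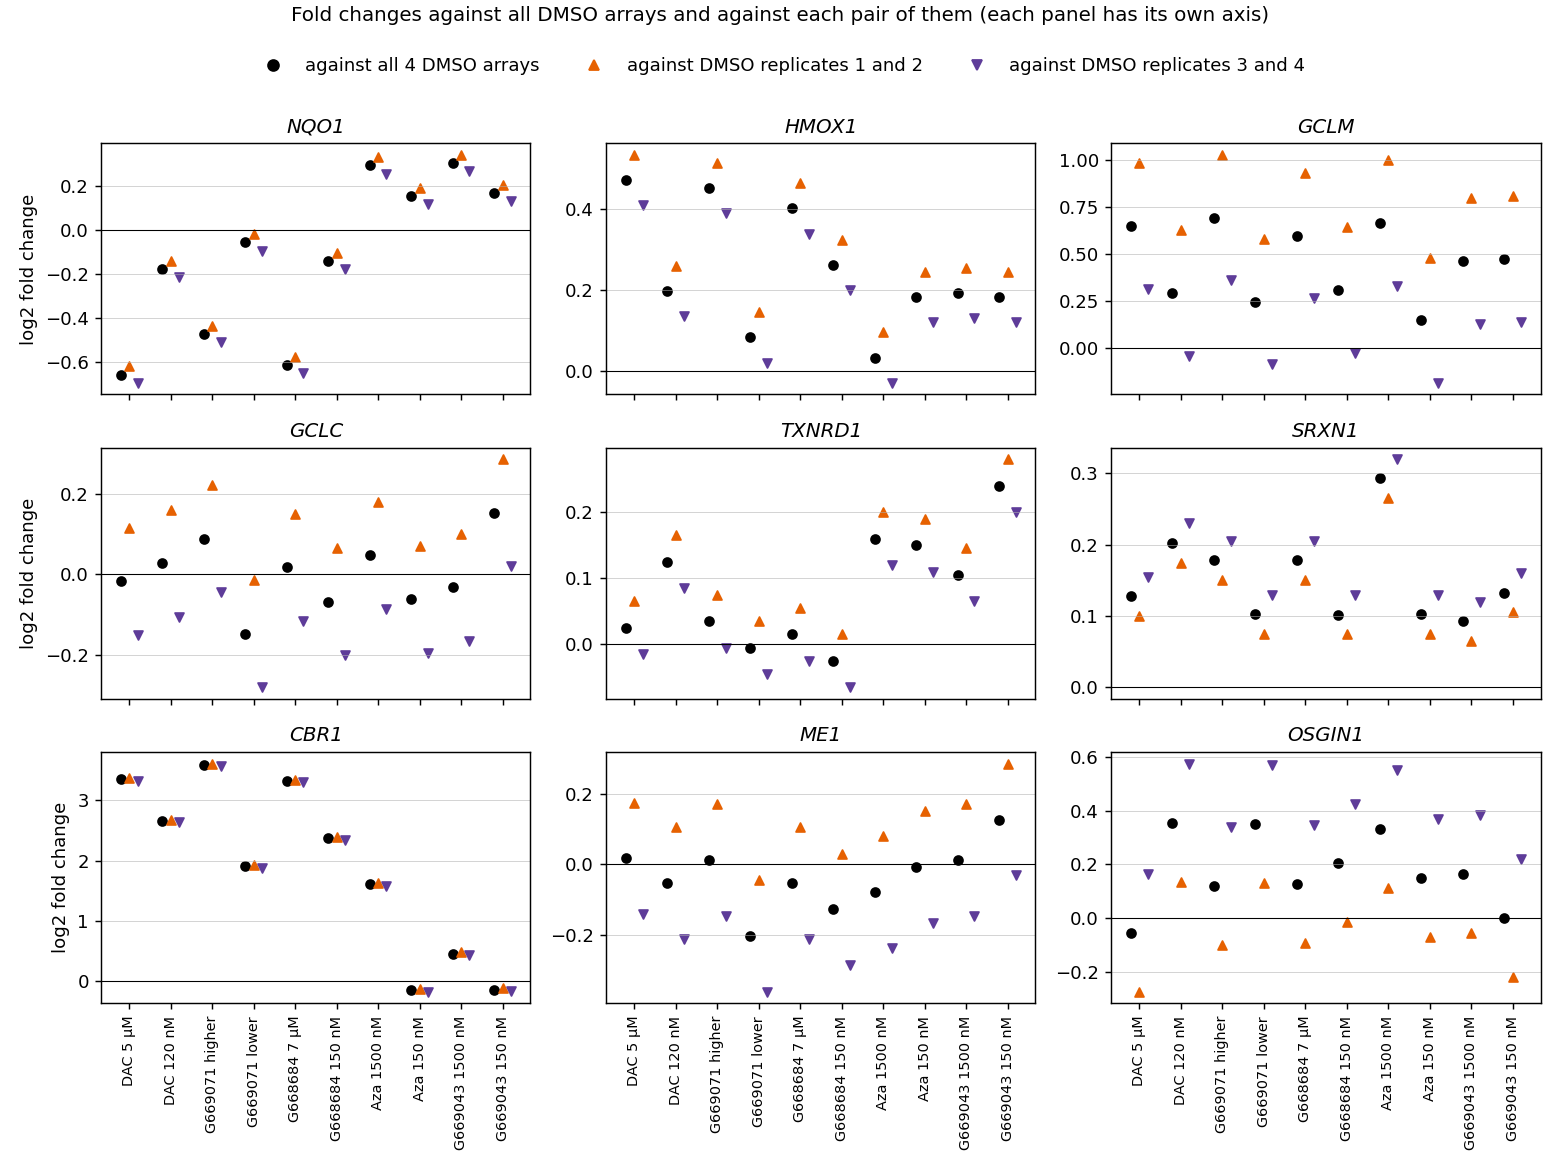
Log2 fold change of each of the 9 genes in the treated groups against all 4 DMSO arrays (black circles), DMSO replicates 1 and 2 (orange, point up) and DMSO replicates 3 and 4 (purple, point down). The level in DMSO replicates 1 and 2 minus that in replicates 3 and 4 was -0.67 for GCLM, 0.44 for OSGIN1 and -0.05 for CBR1, so the symbols of GCLM and OSGIN1 lie apart and those of CBR1 together.

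SRXN1, the sulfiredoxin that repairs overoxidised peroxiredoxins, showed a small shift that ran one way in all groups. It stood at 10.82 and 10.84 with Aza at 1500 nM, 10.80 and 10.68 with DAC at 120 nM, 10.69 and 10.74 with the higher dose of G669071 and 10.66 and 10.77 with G668684 at 7 µM, against 10.54, 10.59, 10.49 and 10.53 in DMSO. Every one of the 20 treated arrays, at 10.61 to 10.84, lay above all 4 DMSO arrays, a separation that 1.88% of all genes had in one direction or the other. It rose by 0.29 ± 0.05 with Aza at 1500 nM (adjusted p = 0.000576), 0.20 with DAC at 120 nM (0.00815), 0.18 with G669071 (0.0146) and 0.18 with G668684 at 7 µM (0.0135). After a further quantile normalization the last 3 were no longer called (adjusted p = 0.121, 0.303 and 0.41). Each of these 3 was also lost without 1 of its arrays: replicate 1 of DAC at 120 nM (0.178), replicate 2 of G669071 (0.15) and replicate 2 of G668684 (0.23). In the other 6 groups the differences were not called.

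TXNRD1, the cytosolic thioredoxin reductase, moved little. It read 12.47 and 12.50 with Aza at 1500 nM and 12.61 and 12.52 with G669043 at 150 nM, against 12.30, 12.27, 12.38 and 12.35 in DMSO. It was called at 0.16 with Aza (adjusted p = 0.034), kept in 29 of 37 alternatives, and at 0.24 with G669043 (0.0353), kept in 21 of 37. Both calls were lost without either treated array (0.115 and 0.234 for Aza, 0.309 and 0.233 for G669043), and without DMSO replicate 1 (0.0536 for Aza and 0.0791 for G669043), and the Aza call also without DMSO replicate 2 (0.0659). OSGIN1 read 7.81 and 7.58 with DAC at 120 nM, against 7.46, 7.66, 7.23 and 7.01 in DMSO, so that 1 of the 2 treated arrays lay inside the DMSO range. Its only call, 0.36 ± 0.13 (adjusted p = 0.0475), was kept in 11 of 37 alternatives and was lost without DMSO replicate 3 (0.0969) or 4 (0.123) and without replicate 1 of its group (0.37). Since OSGIN1 also parted the DMSO pairs, that difference was 0.14 with only the first DMSO pair as control (adjusted p = 0.351) and 0.58 with only the second. With only the second pair OSGIN1 was called higher in 8 of the 10 groups, and with only the first it was called in 1, lower with DAC at 5 µM at -0.28 (0.0334).

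The higher dose of each compound was compared with its lower dose to ask which members followed dose. CBR1 was higher at the higher dose of all 5 compounds, by 0.69 ± 0.13 for DAC (adjusted p = 0.00102), 1.69 for G669071 (1.14e-07), 0.95 for G668684 (5.75e-05), 1.76 for Aza (3.69e-08) and 0.60 for G669043 (0.0117). The G669043 call was lost without either array at 1500 nM (adjusted p = 0.0713 and 0.104) and without replicate 1 at 150 nM, where the difference was 0.37 (0.234). NQO1 was lower at the higher dose of DAC, at -0.48 ± 0.05 (4.42e-06), of G668684, at -0.47 (6.55e-06), and of G669071, at -0.41 (3.21e-05). For Aza and G669043 its dose differences, 0.14 and 0.14, were not called. HMOX1 was higher at the higher dose of G669071, by 0.37 (0.0096), and of DAC, by 0.28 (0.0405). Leaving out replicate 2 of the higher dose ended both calls (0.105 for G669071 and 0.352 for DAC), either array of the lower dose ended that of G669071 (0.059 and 0.0871), and the DAC call was kept in 25 of 37 alternatives. No other member was called between doses. GCLM differed by 0.515 for Aza and 0.445 for G669071. With the beta-actin covariate both were called, at 0.536 (adjusted p = 0.0169) and 0.477 (0.0249). With only 1 DMSO pair kept, OSGIN1 was called lower at the higher DAC dose, at -0.41 (0.00607 for the first pair, 0.00671 for the second). GCLC was then called higher at the higher G669071 dose, at 0.235 (0.00756 and 0.00644). Of the 9 genes, 2 were higher and 1 lower for DAC, where 8.73% and 5.94% of all genes were. The counts were 2 and 1 for G669071 (5.65% and 3.71%), 1 and 1 for G668684 (7.78% and 3.77%), 1 and 0 for Aza (2.41% and 3.38%), and 1 and 0 for G669043 (1.69% and 2.18%). The doses of the compounds differ, so these sizes stand side by side and were not compared.

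The doses of Aza and G669043 were the same, which allowed 2 matched comparisons. At 1500 nM, CBR1 was lower with G669043, at 5.61 and 5.66 against 6.81 and 6.76 with Aza, a difference of -1.15 ± 0.13 (adjusted p = 5.64e-05, 95% interval -1.42 to -0.88) that held under all 37 alternatives. It was the only one of the 9 genes called there, where 1.47% of all genes were higher and 0.659% lower. At 150 nM the CBR1 levels were 4.80 and 5.27 with G669043 against 4.93 and 5.12 with Aza, a difference of 0.01 with an interval from -0.26 to 0.28. No member was called at 150 nM by limma, where 0.0111% of all genes were higher and 0.0554% lower. At an unadjusted p under 0.05 stood 1 member and 1847 of the 18055 genes. The dose effect on CBR1 itself differed between the compounds, at 0.60 with G669043 and 1.76 with Aza, by -1.16 ± 0.19 (interaction term, adjusted p = 0.00293), where 0.449% of genes were called. This term was added after seeing the data and, with the difference of 0.01 at 150 nM, mostly repeats that at 1500 nM. For NQO1 the compounds differed by 0.01 at 1500 nM, with an interval from -0.10 to 0.12, and by 0.02 at 150 nM, with an interval from -0.10 to 0.12. SRXN1 was at 10.62 and 10.64 with G669043 against 10.82 and 10.84 with Aza at 1500 nM. These arrays did not overlap, as was so for 52.4% of all genes, and the difference of -0.20 was not called (adjusted p = 0.102).

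The regulators of the pathway were read in the same arrays. NFE2L2, which encodes NRF2, was lower with DAC at 5 µM, at -0.40 (adjusted p = 0.00504), and with G668684 at 7 µM, at -0.41 (0.00376), and each call was lost without replicate 1 of its group (0.079 and 0.101). KEAP1 was called in 1 group, G669043 at 1500 nM, with 0.23 (0.0462), and kept in 12 of 37 alternatives. BACH1, the repressor that competes for the same sites, was called in no group, with differences from -0.04 to 0.44. MAFF, a small MAF partner, rose in 7 groups, by 1.78 with the higher dose of G669071, 1.66 ± 0.11 with DAC at 5 µM (3.15e-10) and 1.67 with G668684 at 7 µM, and was at 0.21 with Aza at 1500 nM, which was not called (adjusted p = 0.205). SQSTM1, whose protein p62 binds KEAP1, was called higher in all 10 groups, by 0.30 with G669043 at 150 nM to 0.65 with G669071, but its 5 probe sets did not all rise and -0.03 was read with G669043 at 150 nM when probe sets open to several transcripts were left out.

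Beyond the members, 78 further pathway genes in 6 lists were counted, of which 72 had a tested probe set. With DAC at 5 µM 24 were higher and 13 lower (51.4% called, beside 32.2% of all genes), with the higher dose of G669071 21 and 14 (48.6%, beside 29.5%), with G668684 at 7 µM 24 and 13 (51.4%, beside 32.2%), with Aza at 1500 nM 13 and 9 (30.6%, beside 17.3%) and with G669043 at 1500 nM 11 and 4 (20.8%, beside 9.12%). The 9 tested genes of heme and iron, FECH and the transport genes ABCB6, SLC48A1, TFRC and SLC40A1 included, had 6 higher and 1 lower with DAC at 5 µM. With Aza at 1500 nM 4 were higher and 1 lower. Among them FTL, the ferritin light chain, was called higher in all 10 groups, by 0.16 to 0.23, HMOX2, the constitutive heme oxygenase, in 9, by up to 0.81, and the biliverdin reductase BLVRB in 6, by up to 0.88. Of the 11 tested regulators 4 were higher and 1 lower with DAC at 5 µM and 2 and 0 with Aza. Of the 12 thioredoxin genes 5 were higher and 1 lower with DAC and 2 and 1 with Aza, with the glutaredoxin GLRX at 0.66 with DAC at 5 µM (adjusted p = 3.68e-07).

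The glutathione and NADPH lists held calls in both directions, to be read beside 18% of all genes higher and 14.2% lower with DAC at 5 µM, and 8.13% and 9.18% with Aza at 1500 nM. Of 18 glutathione genes 6 were higher and 5 lower with DAC at 5 µM, and 3 and 3 with Aza at 1500 nM. SLC7A11, the cystine transporter that feeds glutathione synthesis, was lower with DAC at 5 µM, at -1.28 ± 0.09 (adjusted p = 4.41e-10). Its 3 probe sets ran from -1.28 to -0.06 there, and with the higher dose of G669071 1 of them read 0.21. GSTM3, a glutathione transferase, was higher with DAC at 2.81, where its other probe set read -0.06. Of the 9 tested NADPH genes 1 was higher and 3 lower with DAC, and 1 and 3 with Aza, among them the transketolase TKT at -0.82 with DAC and the isocitrate dehydrogenase IDH1 at -0.67 with Aza (1.54e-06). Of 13 tested carbonyl and quinone reductases and their kin, 2 were higher and 2 lower with DAC and 1 and 1 with Aza. AKR1B10, an aldo-keto reductase, rose by 1.04 ± 0.07 with DAC at 5 µM (8.66e-10) and by 0.97 with Aza at 1500 nM (1.75e-08), and ALDH3A2, a fatty aldehyde dehydrogenase, was lower in 8 groups. Between the matched compounds at 1500 nM, 5 of the 72 genes, SLC7A11, ABCC2, TKT, IDH1 and SESN3, were higher and 1, AKR1B10, lower with G669043, where 1.47% and 0.659% of all genes were. IDH1 was higher by 0.64 (0.000162) and AKR1B10 lower, at -0.70 (0.000102). Over the alternatives TKT with DAC at 5 µM ran from -0.89 to -0.28 and HMOX2 with the higher dose of G669071 from 0.26 to 0.86, without a change of direction.

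**Figure D5:**
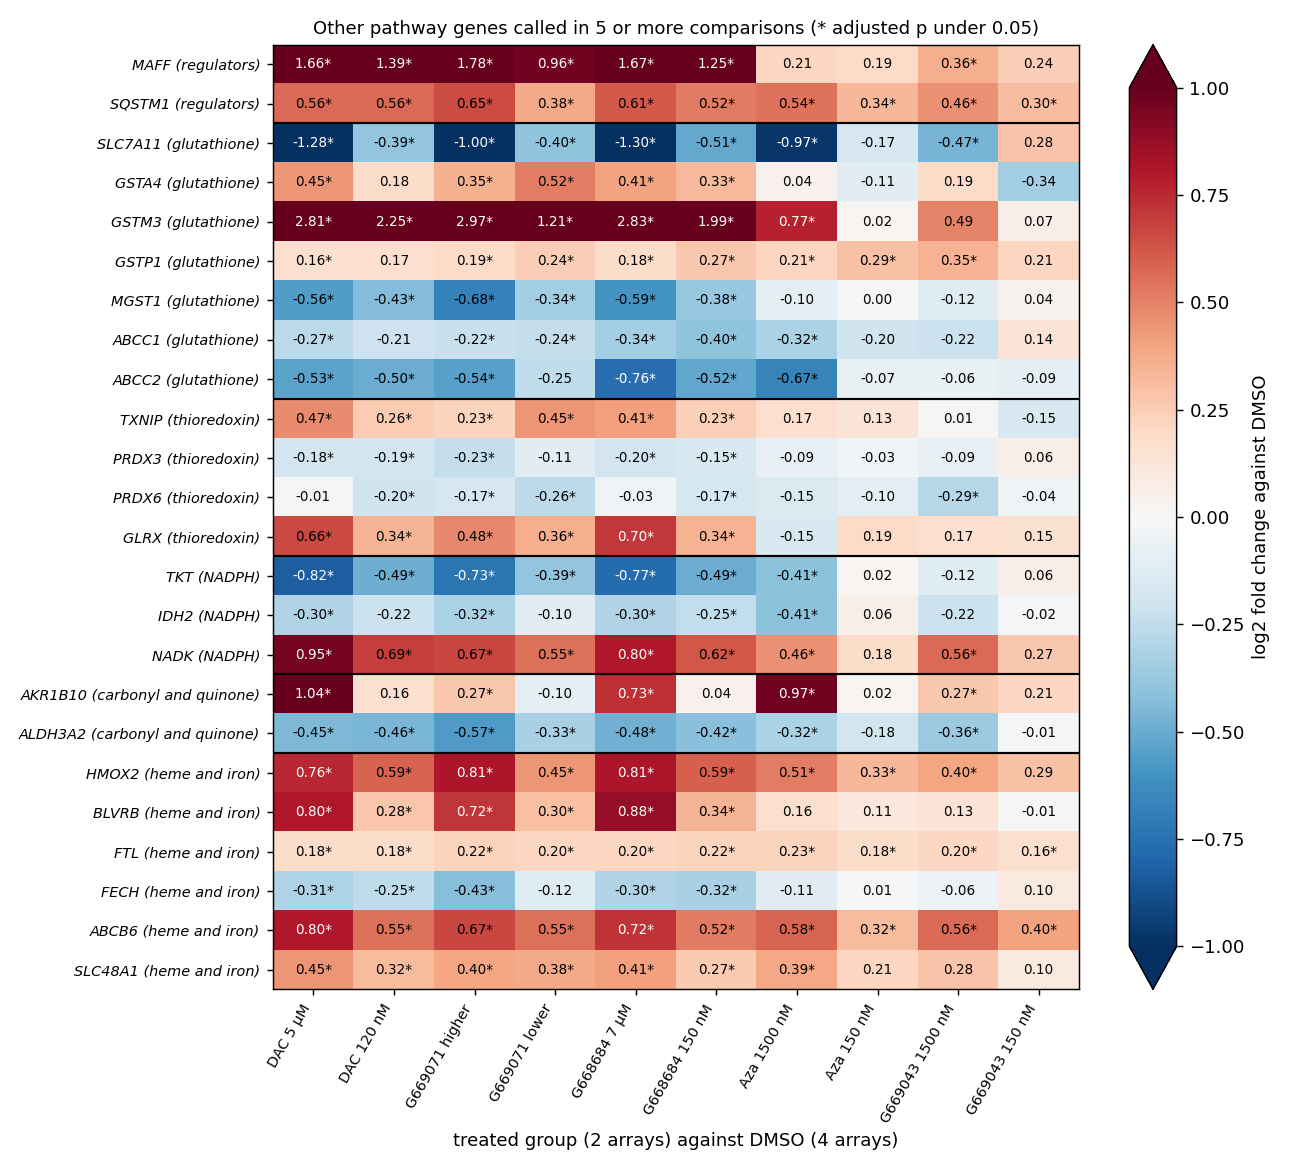
Log2 fold change against DMSO of the 24 further pathway genes called in at least 5 of the 10 comparisons (rows), by treated group (columns), with an asterisk where the adjusted p was under 0.05. FTL, SQSTM1 and ABCB6 carry an asterisk in all 10 groups, and SLC7A11 is on the lower side in 8.

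Other stress responses were counted beside these, against the same shares of all genes (18% higher and 14.2% lower with DAC at 5 µM, 8.13% and 9.18% with Aza, and 5.88% and 3.25% with G669043 at 1500 nM). Of 8 metallothionein and metal-response genes, 5 were higher with Aza at 1500 nM, among them MT1X at 0.36 and MT1H at 0.32, 2 with DAC at 5 µM and 0 with G669043 at 1500 nM. With G668684 at 7 µM 4 were higher and 0 lower, beside 17.5% and 14.7% of all genes. With the higher dose of G669071 1 was higher and 1 lower, beside 15.8% and 13.7%. The metallothionein genes are near-identical copies and may share probes. Of 7 tested heat shock genes, 0 were higher and 1 lower with DAC at 5 µM, and 2 higher and 1 lower with Aza at 1500 nM. SERPINH1, a collagen chaperone, was called higher in 6 groups by 0.37 to 0.61, and HSPB1 lower in 4. Of the 8 epithelial markers 4 were higher and 0 lower with DAC at 5 µM, and 3 higher and 1 lower with Aza at 1500 nM. KRT19 was called higher in 9 groups, EPCAM and VIL1 in 0 (EPCAM from -0.33 to 0.26), and CDH1 was lower with Aza at 1500 nM, at -0.66. Of 8 tested markers of other cell types 1 was higher with DAC and 0 with Aza at 1500 nM.

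Across the 11 group means each member's nearest genes among the 18055 were listed by Pearson's r, as a description over points that share arrays and the DMSO group. CBR1 lay nearest to BCAT1 (r = 0.995), BEX4 (0.992) and GSPT2 (0.991), and NQO1 to HDGF (0.988), CSE1L (0.985) and SKA3 (0.985). HMOX1 lay nearest to ACTN1 (0.970), TRIM8 and CRIPT, and GCLM to GPAT3 (0.956), DEGS1 and PSMC4. None of the members was among another member's 3 nearest genes. Between members, r was -0.83 for CBR1 and NQO1, 0.72 for CBR1 and HMOX1, and -0.82 for NQO1 and HMOX1. It was 0.755 for GCLC and ME1, -0.734 for ME1 and OSGIN1, and 0.696 for GCLM and SRXN1. In order of CBR1 level the groups ran G669071 higher, DAC 5 µM, G668684 7 µM, DAC 120 nM, G668684 150 nM, G669071 lower, Aza 1500 nM, G669043 1500 nM, DMSO, G669043 150 nM and Aza 150 nM. Arrays of neighbours in that order overlapped for DAC at 5 µM with G668684 at 7 µM, and among the last 3 groups.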

How the data were processed

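RNA of HCT116 cells was hybridised to 24 HG-U133 Plus 2.0 arrays. Per the submitters' processing notes, the authors ran RMA with Affymetrix Expression Console 1.1. Deposited were linear intensities, 1 per probe set, of which log2 (in steps of 0.01) was taken here. RMA equalizes arrays, so a shift common to all genes would not show. Names came from the probe table (41091 probe sets with 1 symbol, 1801 with several, 11721 not listed, 62 controls); no genome build for the probes is used (not given in the sources used here).

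Probe sets with a log2 value of at least 5 on at least 2 arrays were kept (35146 with 1 symbol). The brightest probe set stood for a gene, for 18055 genes. A single linear model of the 11 group means was fitted with limma 3.58.1 in R 4.3.3 (intensity trend, 13 residual and 6.14 prior degrees of freedom) for 17 comparisons: 10 against DMSO, 5 of doses and 2 of Aza with G669043. Calls are Benjamini-Hochberg adjusted p under 0.05, 2-sided, over all genes. Errors are SEs, and the number of arrays limits precision: the median 95% interval reached 0.207 log2 either way in comparisons with DMSO and 0.239 in the others. The model was tested on simulated data. Tables and figures used Python 3.11.15, pandas 2.3.3 and matplotlib 3.10.9.

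The members and lists were chosen with earlier results of these data known. Named genes are the 9 members, NFE2L2, KEAP1, BACH1 and CBR3, up to 4 called genes per list and comparison with the largest fold changes, cell markers, and each member's 3 nearest genes. The main model did not pair arrays by replicate number. Deviations of same-numbered arrays correlated between -0.393 and 0.612 over 55 pairs, a range that does not exclude shared structure among some of them. The dose interaction was added after seeing the data. Probe set means, filters, normalization, controls and single arrays were varied, as given below.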

Additional observations from a re-analysis of the deposited data

Results flagged for a closer look

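The dose effect on CBR1 differed between G669043 and Aza in an interaction term of -1.16 log2 (G669043 minus Aza, limma, adjusted p = 0.00293). That term was added after seeing the data. At 150 nM the CBR1 means were 5.035 with G669043 and 5.025 with Aza. The term thus mostly repeats the difference of -1.15 at 1500 nM and is not separate evidence. NQO1 moved opposite ways in different compounds, with -0.657 log2 for DAC at 5 µM and 0.292 for Aza at 1500 nM, each against DMSO, and every array of each group lay on its own side of the DMSO arrays. Of all genes, 42.6% did not overlap DMSO with DAC at 5 µM and 29.4% with Aza at 1500 nM. The doses differ and the NQO1 difference between these groups was not tested.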

How the results depend on the processing

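Of 153 member results, 41 were called, and 22 of these held under every alternative run, which were 24 single arrays left out and 13 others; 0 reversed. Of the 112 that were not called, 47 were called in at least 1 alternative. Among the 5 higher doses against DMSO there were 18 higher and 3 lower calls, among the lower doses 7 and 2, between doses 7 and 3 and between the matched compounds 0 and 1. Leaving out each array gave 16 to 18 and 3 to 3, 5 to 9 and 1 to 3, 5 to 8 and 3 to 4, and 0 to 0 and 1 to 1. The lower-dose count of lower calls was 1 without DMSO replicate 3, replicate 1 of DAC at 120 nM, or either array of G668684 at 150 nM.

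When probe sets ending in _s_at, _x_at or _a_at were left out, NQO1 had no probe set left and the lower calls were 0 at the higher doses, 1 at the lower doses and 0 between doses. There SQSTM1 with G669043 at 150 nM turned to -0.032 (0.30 otherwise), MT1G with Aza at 1500 nM to -0.03 (0.30), and GSTM3 to -0.057 with DAC at 5 µM, -0.012 with G669071 at its higher dose, -0.012 with G668684 at 7 µM and -0.073 with DAC at 120 nM, since another probe set stood for the gene. Lower calls at the lower doses were 0 with arrays centred on their medians and 1 without an intensity trend. Against DMSO replicates 1 and 2 alone the lower doses had 18 higher and 1 lower calls. Against replicates 3 and 4 alone, lower calls were 5 at the higher doses, 7 at the lower, 5 between doses and 2 between the matched compounds. With beta-actin 3′ minus 5′ as a covariate, the lower doses had 14 higher and 1 lower calls, and the higher calls between doses were 11. In fits of only the groups compared, with fewer arrays to estimate the spread, higher calls were 10 at the higher doses, 3 at the lower, 11 between doses and 2 between the matched compounds, and lower calls at the lower doses were 0. The cause of the other shifts was not tested.

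With the replicate number as a block the lower doses had 18 higher and 1 lower calls. Since only DMSO has replicates 3 and 4, its fold changes are those against DMSO replicates 1 and 2, but its errors and calls are not: SRXN1 with G668684 at 7 µM was lost (adjusted p = 0.0536), and GCLM was called between the doses of Aza (0.515, adjusted p = 0.0404). The levels hold no detection calls, which limits what can be said of CBR1 near 5.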
